A study of Mus musculus with 6 samples.

Results

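Chemokine receptors are the surface proteins through which leukocytes sense chemokines, the small secreted proteins that guide their movement. Each of the 9 genes described here encodes such a receptor, a membrane-spanning protein that signals through inhibitory G proteins. The genes were Ccr1, Ccr2, Ccr7, Ccr9, Cx3cr1, Cxcr2, Cxcr3, Cxcr4 and Cxcr5, chosen by name as receptors of monocyte, neutrophil and lymphocyte migration, and all 9 were found among the 39179 genes in the files. In bone marrow, Cxcr4 and its ligand Cxcl12 hold hematopoietic cells, Cxcr2 draws mature neutrophils out to the blood, and Ccr2 lets classical monocytes leave. The other members are known mainly from cells that pass through or arise in the marrow: Cx3cr1 from patrolling monocytes, Ccr1 from monocytes and neutrophils, Cxcr5 and Ccr7 from B and T cells that home to lymphoid organs, Cxcr3 from effector T cells and NK cells, and Ccr9 from plasmacytoid dendritic cells and T cell progenitors.

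Bone marrow RNA from 6 littermate mice was sequenced and the reads counted per gene, to compare marrow in which the intestinal transcription factor CDX2 was switched on with control marrow. The 3 MxCDX2 mice (RsCDX2::Mx1Cre) carried a human CDX2 coding sequence in the Rosa26 locus, silent until a stop sequence is cut out, and a Cre recombinase under the interferon-inducible Mx1 promoter, which is active in any cell that responds to interferon. The control group pooled 3 genotypes with 1 mouse each, RsCDX2 (control 1), Mx1Cre (control 2) and wild type (control 3). All 6 mice, controls included, were 3 months old when poly(I:C), an inducer of interferon, was injected into the peritoneum 3 times at 10 µg per g of body weight, and RNA was taken 6 weeks later. No mouse was left without poly(I:C), and each mouse was sequenced as 1 library, so p-values measure the spread between these mice.

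Reads on genes numbered 38646101 to 49899650 per mouse. Mouse Cdx2 had 4, 0 and 0 reads in control mice 1, 2 and 3. In MxCDX2 mice 1, 2 and 3 it had 152, 155 and 183 reads. The sequence that was switched on is human CDX2, and whether these reads come from it or from the mouse gene was not tested. Markers of granulocytes, monocytes, erythroid cells and B cells were detected in every mouse, with no listed marker at 0 in any mouse. The wild-type mouse stood apart from the other 5 on the second principal component, which held 15.6% of the variance, whereas the first, with 60.5%, separated the 2 groups. Leaving this mouse out, the log2 fold changes of Ccr2, Cxcr2, Ccr7 and Cxcr5 were 2.66, -1.78, -2.19 and -2.35, and all 4 still passed the test. Normalized counts were scaled so that all libraries have 1 size, the average TMM-adjusted one.

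Because CDX2 is a DNA-binding protein that recognises the letters ATAAA, the 250 bases before the RefSeq start site of each member were read, and the stretches that hold this core are shown for Ccr2, the member that rose, and for Cx3cr1, a second monocyte receptor. RefSeq (GRCm38.p6) held 7 of the 9 windows. Ccr7 and Cxcr5 were not in the table used here. GENCODE M21 annotates transcripts that start farther upstream for some members, so these windows are not free of exons: 17 of the 250 bases of Ccr2, 0 of Cx3cr1 and 128 of Cxcr3 lie outside annotated exons, and the stretches of Ccr2 and Cx3cr1 lie within the annotated genes. In the lines that follow, written 5′ to 3′ in the direction of the gene, capitals mark ATAAA or, on the other strand, TTTAT. They lie at chr9:124102073-124102102 and chr9:124102104-124102133 (plus strand) for Ccr2 and at chr9:120068297-120068326 (minus strand) for Cx3cr1.
Ccr2 first: atcacttgctctTTTATctccgccttctct
Ccr2 second: tctgcaggaaacTTTATttcctacttctgc
Cx3cr1: tggctaacttcgaaaATAAAgatgccctca

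The windows of Cxcr2, the neutrophil receptor that fell, and of Cxcr4, the most abundant receptor of the 9 per kilobase, are shown as far as they are free of annotated exons, 245 and 250 bases, at chr1:74153744-74153988 (plus strand) and chr1:128592300-128592549 (minus strand). The capitals in Cxcr4 mark TTTAT and ATAAA, which overlap there.
Cxcr2: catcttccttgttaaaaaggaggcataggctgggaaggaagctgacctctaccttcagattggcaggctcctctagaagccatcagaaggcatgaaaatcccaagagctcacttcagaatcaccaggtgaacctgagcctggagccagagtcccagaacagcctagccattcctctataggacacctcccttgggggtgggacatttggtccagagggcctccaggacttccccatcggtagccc
Cxcr4: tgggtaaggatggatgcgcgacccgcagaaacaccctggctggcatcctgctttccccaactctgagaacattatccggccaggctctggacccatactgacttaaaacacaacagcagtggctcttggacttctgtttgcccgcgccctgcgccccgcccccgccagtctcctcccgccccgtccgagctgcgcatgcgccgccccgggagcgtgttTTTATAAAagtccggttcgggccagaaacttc

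Counting -1 as the base next to the RefSeq start site, TTTAT began at -98 and -67 in Ccr2, and ATAAA at -15 in Cx3cr1. Cxcr3 held TTTAT at -198, and Cxcr4 held TTTAT at -32 and ATAAA at -29. No ATAAA was found on either strand in the full windows of 250 bases of Ccr1, Ccr9 and Cxcr2. The core is common: 37.3% of the 32851 mouse promoter windows of this length hold it on either strand. The longer form CNATAAA, which contains the core and is in 9.81% of windows, was in none of the 7, and neither was TTGCNNAA, a C/EBP motif that 9.56% hold. GAGGAAG, a PU.1 motif present in 10.6% of windows, was in Cxcr3 only among the 7, on the opposite strand from -15. Such matches are letters in a window, and binding was not measured here.

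Of the 9 receptors, Ccr2 rose and Cxcr2, Ccr7 and Cxcr5 fell in MxCDX2 marrow, and the other 5 did not pass the test. A gene passed when edgeR's quasi-likelihood test gave a Benjamini-Hochberg adjusted p below 0.05 over the 15980 genes tested and the absolute log2 fold change was above 1. The 4 members that passed compare with 13.6% of all genes tested. The 1 that rose compares with 4.59% of genes called higher, and the 3 that fell with 9.03% called lower. In 5 of the 9 the mice of the 2 groups did not overlap, against 42.1% of all genes tested. The median log2 fold change was -0.67 over the 9 members and 0.00 over all genes tested. In bulk marrow, fewer cells of a type and less RNA per cell cannot be told apart, and this holds for each receptor below.

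**Figure D1:**
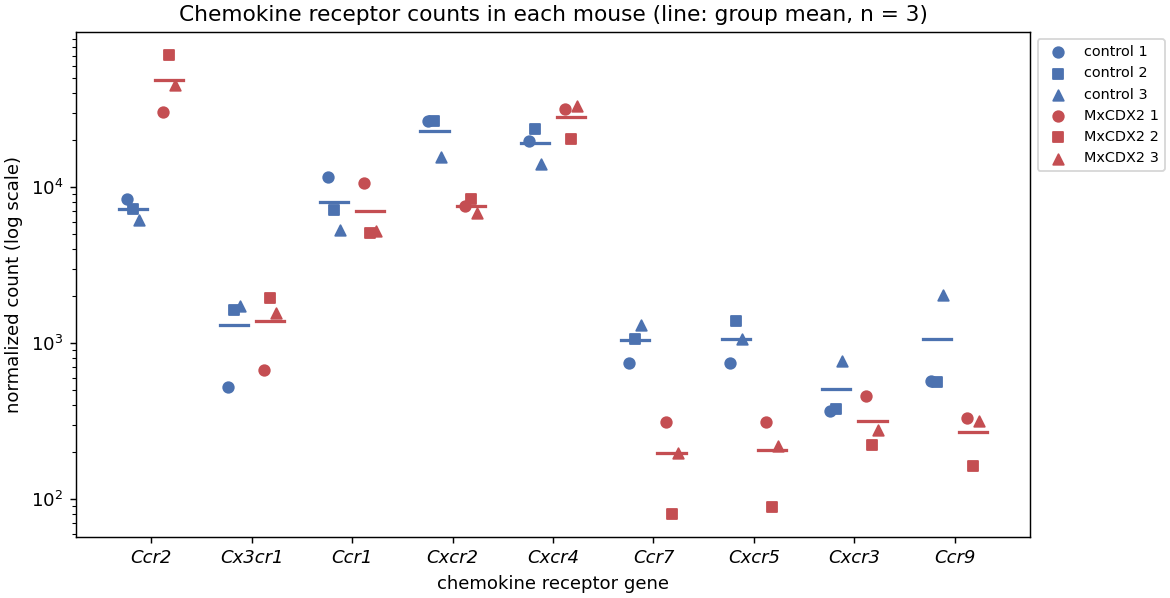
Normalized count of each receptor gene (y axis, log scale) in the 3 control mice (blue) and the 3 MxCDX2 mice (red), with symbols for mouse 1 (circle), 2 (square) and 3 (triangle) and a line at the group mean. The red points of Ccr2 lie above all blue points, and those of Cxcr2, Ccr7, Cxcr5 and Ccr9 lie below them.

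Ccr2, the receptor for Ccl2 and Ccl7 that classical monocytes use to enter the blood, had normalized counts of 8383, 7245 and 6125 in control mice 1, 2 and 3 and of 30520, 70380 and 45380 in MxCDX2 mice 1, 2 and 3. The lowest MxCDX2 mouse was above the highest control, and the MxCDX2 mice differed more among themselves, with the highest 2.31 times the lowest against 1.37 times in the control mice. The mean went from 7251 ± 1129 to 48760 ± 20140 (SD, n = 3 each), a ratio of 6.72. On the log2 scale the fold change was 2.75 (SE 0.33, 95% interval 1.97 to 3.53) with an edgeR quasi-likelihood, Benjamini-Hochberg adjusted p of 0.00312. It stayed past the threshold in all 6 fits that left out 1 mouse, with log2 fold changes of 2.39 to 3.00. The gene lies at chr9:124101950-124113557 on the plus strand (GRCm38), and 1.91% of the 50-base windows of its exons occur in other genes.

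The rise of Ccr2 came with a higher level of monocyte markers. Of 10 monocyte markers that exclude Ccr2 (among them Csf1r, Ly6c2 and F13a1), 7 rose and none fell, and their summed normalized count was 71230 to 91220 in the control mice and 306900 to 330500 in the MxCDX2 mice. The log2 ratio of Ccr2 to this sum was -3.44, -3.41 and -3.54 in the control mice and -3.33, -2.23 and -2.86 in the MxCDX2 mice. The groups did not overlap, with a difference of 0.66, although MxCDX2 mouse 1 was close to the control mice. The exact permutation test gave a two-sided p of 0.1, the smallest that 3 mice against 3 allow.

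Cx3cr1, the fractalkine receptor of nonclassical monocytes, had normalized counts of 520.1, 1635 and 1739 in the control mice and of 676.9, 1939 and 1553 in the MxCDX2 mice. The groups overlapped, and in each of them mouse 1 was the low one. With a log2 fold change of 0.10 (SE 0.53, 95% interval -1.17 to 1.37), these mice do not exclude a change past the fold threshold in either direction. The span of Cx3cr1 overlaps 9 other annotated genes, and it is not known whether strand was used in counting. The sign turned to -0.26 without control mouse 1 and to -0.21 without MxCDX2 mouse 2. Per kilobase of exon, Ccr2 was 10.7, 2.95 and 2.35 times as high as Cx3cr1 in the control mice and 30, 24.2 and 19.5 times as high in the MxCDX2 mice. Of 6 nonclassical monocyte markers 2 fell and none rose, with a summed count of 18490 to 19120 in control and 22550 to 24610 in MxCDX2 mice. Spn makes up most of that sum, with a mean of 14810 in control and 21600 in MxCDX2 mice, and is the 1 marker of the 6 with a log2 fold change above 0. The log2 ratio of Cx3cr1 to that sum was -4.04 ± 0.97 in the control and -4.20 ± 0.79 in the MxCDX2 mice (SD, n = 3 each).

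Ccr1, a receptor for Ccl3, Ccl5, Ccl6 and Ccl9 on monocytes and neutrophils, had normalized counts of 11640, 7132 and 5325 in the control mice and of 10650, 5122 and 5213 in the MxCDX2 mice. The ranges nearly coincided, and mouse 1 was the high one in each group. Its log2 fold change was -0.20 (SE 0.39, 95% interval -1.12 to 0.72), and its sign turned to 0.18 without control mouse 1. Relative to the monocyte markers Ccr1 was lower in MxCDX2 marrow, with a log2 ratio of -3.38 ± 0.39 in the control and -5.62 ± 0.66 in the MxCDX2 mice and no overlap. Relative to the mature neutrophil markers described next it was higher, at -6.69 ± 0.30 and -5.35 ± 0.75 (SD, n = 3 each), again with no overlap. The exact permutation test gave a two-sided p of 0.1 for both ratios.

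Cxcr2, the receptor for Cxcl1, Cxcl2, Cxcl3, Cxcl5 and Ppbp that leads neutrophils out of the marrow, had normalized counts of 26460, 26710 and 15540 in the control mice and of 7573, 8413 and 6867 in the MxCDX2 mice. Every MxCDX2 mouse was below every control mouse, and the wild-type control was the lowest of the controls. The mean went from 22900 ± 6375 to 7618 ± 774.4 (SD, n = 3 each), so that the control level was 3.01 times the MxCDX2 level. The log2 fold change was -1.59 (SE 0.23, 95% interval -2.13 to -1.04) with an edgeR quasi-likelihood, Benjamini-Hochberg adjusted p of 0.00540, and all 6 fits without 1 mouse kept the call. Cxcr2 lies at chr1:74153989-74161246 on the plus strand, and 6.68% of its 50-base windows occur in other genes, none of them a chemokine receptor.

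Mature neutrophil markers were lower as well: 6 of 10 fell and none rose, and their sum was 586900 to 949900 in the control and 230900 to 334100 in the MxCDX2 mice. The log2 ratio of Cxcr2 to this sum was -5.17, -5.02 and -5.24 in the control mice and -5.04, -5.31 and -5.07 in the MxCDX2 mice. The means were equal at -5.14 in both groups, and the mice of the 2 groups interleaved. Most of that sum in control marrow came from Ltf and Camp, with means of 334300 and 200500, which are also in the immature list. The single markers had log2 fold changes from -3.35 (Cxcl2) to -0.35 (Csf3r), among them -1.88 for Ly6g and -2.41 for Retnlg, so the equal ratio holds for the sum only. Cxcr2 thus moved in the same proportion as the marker sum, while the ratios of Ccr1 and Ccr2 to the markers they were set against differed between the groups without overlap. Whether the amount of each cell type accounts for the level of these or the other receptors was not tested.

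**Figure D2:**
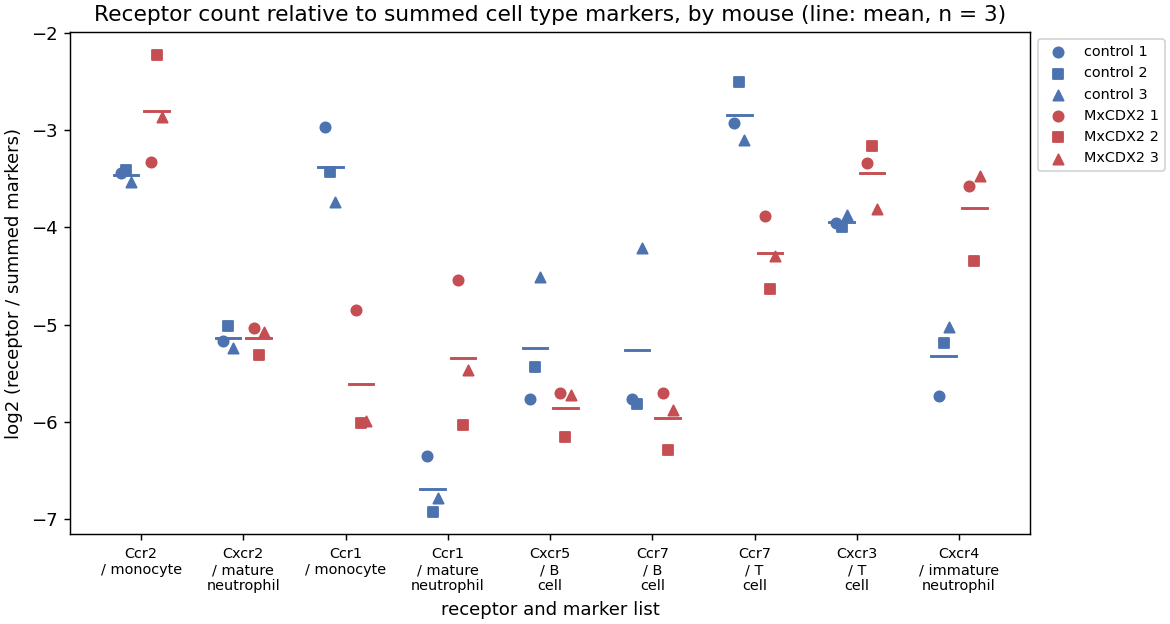
Log2 of a receptor's normalized count over the summed normalized count of a marker list (y axis) for 9 receptor and list pairs (x axis), in control (blue) and MxCDX2 (red) mice, with mouse symbols as in the legend and a line at each mean of 3 mice. The points of Cxcr2 over mature neutrophil markers interleave around -5.14, and the red points of Ccr2 over monocyte markers lie above the blue ones.

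Cxcr4, the receptor for Cxcl12 that retains hematopoietic cells in the marrow, had normalized counts of 19910, 23750 and 14160 in the control mice and of 31730, 20480 and 33000 in the MxCDX2 mice. MxCDX2 mice 1 and 3 were above all controls, and MxCDX2 mouse 2 lay within the control range. Its log2 fold change was 0.56 (SE 0.26, 95% interval -0.05 to 1.17) with an edgeR quasi-likelihood, Benjamini-Hochberg adjusted p of 0.170, which did not pass. Markers of immature neutrophils were mixed, with 1 of 8 higher and 2 lower and sums of 462100 to 1059000 in control and 366900 to 417700 in MxCDX2 mice. Most of that sum in control marrow came from the granule genes Ltf and Camp, which are also in the mature list, and from Chil3. These had log2 fold changes of -1.81, -1.18 and -2.79, whereas Elane, Mpo, Prtn3, Ctsg and Fcnb had -0.31, 0.31, 0.78, 2.32 and -0.73. A ratio to that sum therefore holds for the sum only. The log2 ratio of Cxcr4 to that sum was -5.32 ± 0.37 in control and -3.80 ± 0.48 in MxCDX2 mice (SD, n = 3 each), without overlap, and its ratio to B cell markers was -1.05 ± 0.28 and 1.39 ± 0.39, also without overlap.

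Cxcr5 and Ccr7, which bring lymphocytes to lymphoid organs, both fell. Cxcr5, the Cxcl13 receptor of mature B cells, had normalized counts of 745, 1389 and 1066 in the control mice and of 313.6, 88.17 and 220.2 in the MxCDX2 mice. Ccr7, the receptor for Ccl19 and Ccl21, had 745, 1067 and 1309 in the control mice and 313.6, 80.33 and 197.6 in the MxCDX2 mice. In both genes every MxCDX2 mouse was below every control mouse and MxCDX2 mouse 2 was the lowest of all. The equal values in mouse 1 of each group come from equal read counts, 583 in control mouse 1 and 296 in MxCDX2 mouse 1 for each gene, on separate chromosomes.

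For Cxcr5 the log2 fold change was -2.36 (SE 0.48, 95% interval -3.51 to -1.22), with an edgeR quasi-likelihood, Benjamini-Hochberg adjusted p of 0.0167. For Ccr7 it was -2.40 (SE 0.50, 95% interval -3.58 to -1.22), with an adjusted p of 0.0176 from the same edgeR test. The control mean was 5.14 times the MxCDX2 mean for Cxcr5 and 5.28 times for Ccr7. Both calls were lost without MxCDX2 mouse 3, which had the middle MxCDX2 value for each gene. The edgeR adjusted p was then 0.0672 for Cxcr5 and 0.0734 for Ccr7, while the log2 fold changes stayed at -2.40 for each. In that fit the calls over all genes went from 2177 to 1205.

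B cell markers fell with these receptors, 7 of 10 lower and none higher, with sums of 24310 to 60340 in control and 6280 to 16390 in MxCDX2 mice. T cell markers had 1 of 10 lower and none higher, with sums of 5671 to 11280 and 1993 to 4617. The lower one was Cd4, at a log2 fold change of -2.64. It had the highest control mean of the 10, 2287 against 365.6 in MxCDX2 mice. The other T cell markers had log2 fold changes of -1.84 (Lef1) to -0.15 (Cd3g), so ratios to this sum hold for the sum only. The log2 ratio of Cxcr5 to the B cell sum was -5.76, -5.44 and -4.51 in the control mice and -5.71, -6.15 and -5.72 in the MxCDX2 mice, and the groups overlapped. Ccr7 over B cell markers overlapped too, at -5.27 ± 0.91 and -5.96 ± 0.30, but Ccr7 over T cell markers did not, at -2.85 ± 0.31 in control and -4.27 ± 0.38 in MxCDX2 mice (SD, n = 3 each, exact two-sided permutation p = 0.1). Cxcr5 spans chr9:44511787-44561877 on the minus strand and overlaps Bcl9l. Of its 50-base windows 1.86% occur in 1 other gene, which is no chemokine receptor, whereas Ccr7 (chr11:99144196-99155077, minus strand) shares none with any gene.

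Cxcr3, the receptor for the interferon-induced chemokines Cxcl9, Cxcl10 and Cxcl11, had normalized counts of 364.2, 380.3 and 770.4 in the control mice and of 456.6, 221.4 and 276.8 in the MxCDX2 mice. MxCDX2 mouse 1 lay above 2 of the controls, and the wild-type mouse was the highest. Cxcr3 had a log2 fold change of -0.67 (SE 0.40, 95% interval -1.62 to 0.29), which did not pass, and of -0.21 when the wild-type mouse was left out. Relative to the summed T cell markers the groups did not overlap, with a log2 ratio of -3.94 ± 0.06 in control and -3.44 ± 0.33 in MxCDX2 mice. Cd4, a large part of that sum in control marrow, had counts of 1701, 1093 and 4068 there. In the MxCDX2 mice Cd4 had 351.7, 272.3 and 472.7, so the lack of overlap holds for the sum only. Relative to the summed NK cell markers the groups overlapped, at -2.84 ± 0.14 and -2.93 ± 0.35 (SD, n = 3 each). Of 8 NK cell markers 1 fell and none rose.

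Ccr9, the Ccl25 receptor of plasmacytoid dendritic cells and T cell progenitors, had normalized counts of 572.5, 562.0 and 2036 in the control mice and of 332.6, 163.6 and 314.3 in the MxCDX2 mice. The groups did not overlap, but the wild-type mouse alone was 3.62 times the lowest control. For Ccr9 the log2 fold change was -1.97 (SE 0.58, 95% interval -3.36 to -0.57) with an edgeR quasi-likelihood, Benjamini-Hochberg adjusted p of 0.0552, just short of the threshold. It passed with DESeq2 (adjusted p = 0.00247) and with every gene of at least 1 count in the edgeR test (adjusted p = 0.0398), and leaving out the wild-type mouse gave a log2 fold change of -1.06. Of 8 plasmacytoid dendritic cell markers, which include Ccr9 itself, 5 fell and none rose, and the log2 ratio of Ccr9 to the other 7 overlapped between the groups at -5.11 ± 0.91 and -5.91 ± 0.47 (SD, n = 3 each). Spib had the highest mean of these markers in control marrow, 11760 against 2975 in MxCDX2 marrow. Tcf4 had the highest in MxCDX2 marrow, 6827 against 3868 in control marrow, and is the 1 marker with a log2 fold change above 0. The counts of Ccr9 are uncertain, since 20.1% of its 50-base windows occur in 3 other genes and 6 annotated genes overlap its span.

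**Figure D3:**
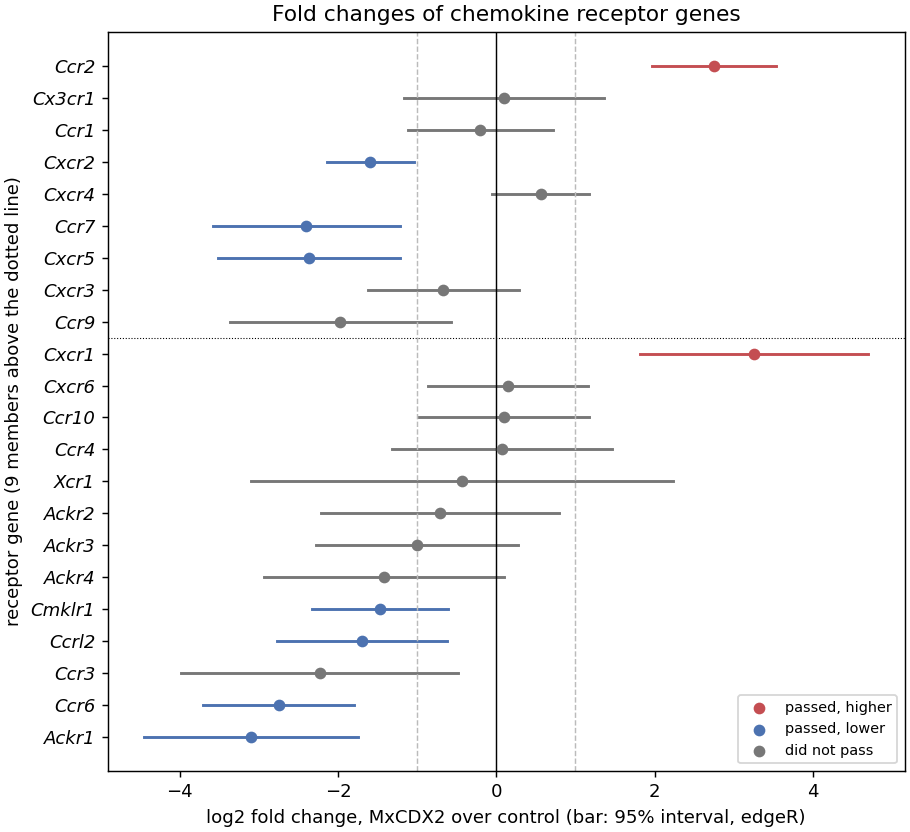
Log2 fold change of MxCDX2 over control (x axis) with its 95% interval from the edgeR fit for the 9 members (above the dotted line) and 13 other tested chemokine receptor genes, with dashed lines at -1 and 1. Red marks genes that passed as higher (Ccr2, Cxcr1), blue those that passed as lower and grey those that did not pass.

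Per kilobase of merged exons, the scale on which genes can be compared, Cxcr4 and Cxcr2 led in control marrow with 10660 ± 2670 and 7514 ± 2092 and overlapped between mice. Ccr1 followed at 2835 ± 1147 and Ccr2 at 1073 ± 167, each clear of the next, and Ccr7, Cxcr5, Cxcr3, Cx3cr1 and Ccr9 came last, from 526.1 ± 143.1 down to 103 ± 82.6, with overlap between each neighbouring pair. In MxCDX2 marrow Cxcr4 was first at 15710 ± 3812 and Ccr2 second at 7213 ± 2979, without overlap. Cxcr2 at 2499 ± 254.1 and Ccr1 at 2469 ± 1117 overlapped in the third and the fourth place, and the other 5 lay between 308.4 ± 143.5 (Cx3cr1) and 26.3 ± 9.04 (Ccr9), again overlapping from one to the next (SD, n = 3 for every level). With the length of the longest coding transcript the order of the group means was the same, but Cxcr4 and Ccr2 overlapped in the MxCDX2 mice.

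As a share of the summed per-kilobase level of the 9 receptors, Ccr2 took 4.77%, 3.96% and 5.11% in the control mice and 15.6%, 38.6% and 22.6% in the MxCDX2 mice. Cxcr2 took 33.4%, 32.4% and 28.8% in the control mice and 8.57%, 10.2% and 7.57% in the MxCDX2 mice. Cxcr4 took 42.3% to 48.5% in control and 42.0% to 61.3% in MxCDX2 marrow, the largest share of the 9 in every mouse on this scale. With the length of the longest coding transcript Ccr2 was above Cxcr4 in MxCDX2 mouse 2, at 42.6% against 39.3%. The sum itself was 17730 to 27080 in control and 26950 to 29760 in MxCDX2 mice. These shares depend on one another, and the depth behind them is that of the whole library.

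**Figure D4:**
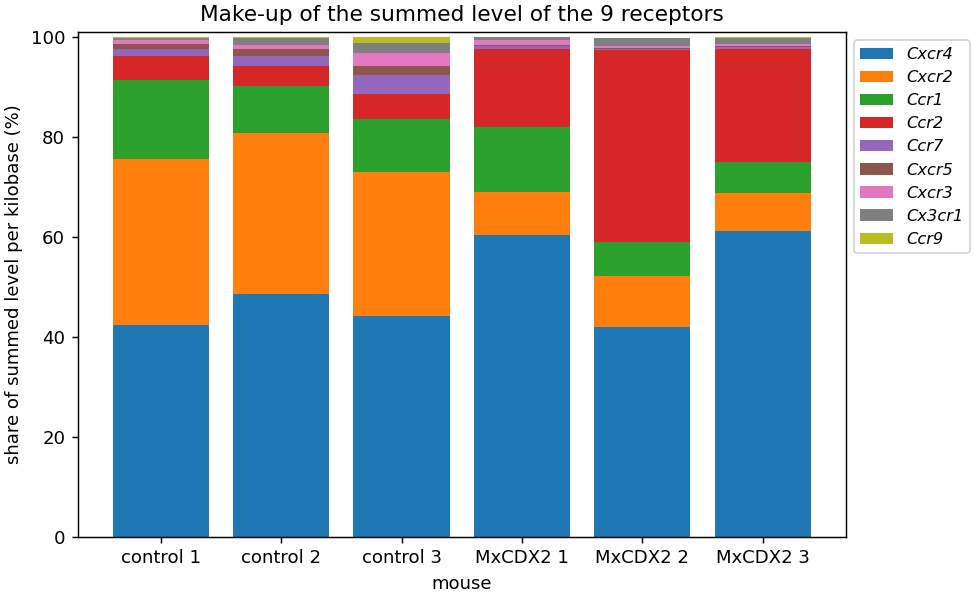
Share of each receptor in the summed level per kilobase of the 9 receptors (y axis, percent) in each of the 6 mice (x axis), stacked in the same order. The Ccr2 segment covers 3.96% to 5.11% in the control mice and 15.6% to 38.6% in the MxCDX2 mice, and the Cxcr2 segment shrinks from 28.8% or more to 10.2% or less.

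Neighbouring receptor genes differed in their fold changes. On chromosome 9, Ccr9, Cxcr6, Xcr1, Ccr1, Ccr1l1, Ccr3 and Ccr2 lie in this order, and of the 6 tested among these 7 Ccr2 was the one that passed. Ccr3, an eosinophil receptor next to Ccr2, had a log2 fold change of -2.23 (SE 0.74), and Cxcr6, next to Ccr9, one of 0.15 (SE 0.42). Neither passed in edgeR, and DESeq2 called Ccr3 lower.

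On chromosome 1, Cxcr2 and its paralog Cxcr1, a receptor for a like set of ligands, lie 30538 bases apart and changed in opposite directions. Cxcr1 had normalized counts of 62.6, 48.7 and 176.9 in the control mice and of 617.6, 1449 and 711.2 in the MxCDX2 mice. Its log2 fold change was 3.26 (SE 0.60) with an edgeR quasi-likelihood, Benjamini-Hochberg adjusted p of 0.0123, against the -1.59 of Cxcr2. Per kilobase Cxcr1 was 0.00484, 0.00372 and 0.0233 of Cxcr2 in the control mice and 0.167, 0.352 and 0.212 of it in the MxCDX2 mice. The groups did not overlap (exact two-sided permutation p = 0.1), Cxcr1 stayed the lower gene in every mouse, and no 50-base window is shared by the pair.

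**Figure D5:**
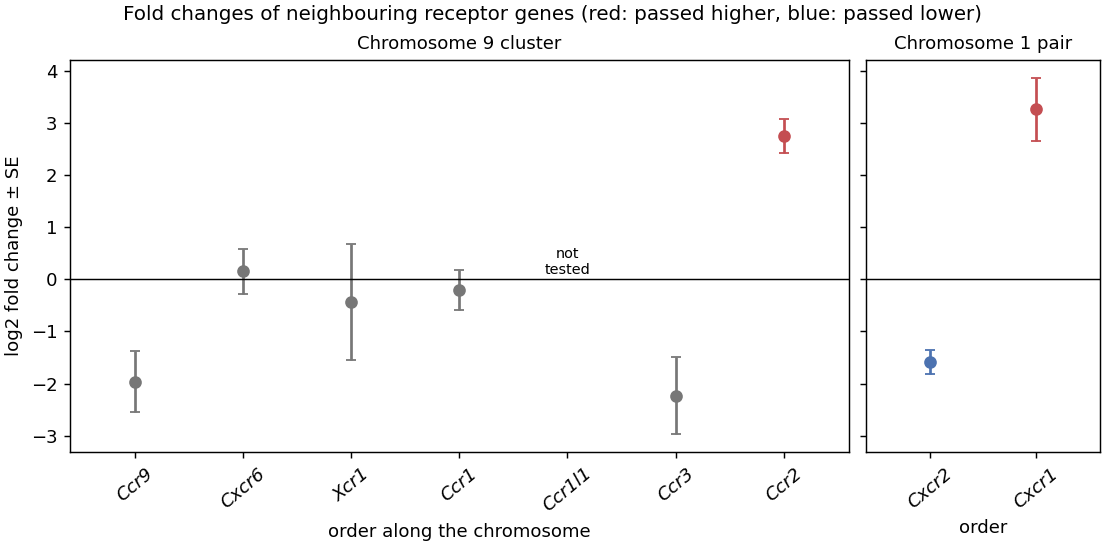
Log2 fold change with its standard error (y axis) of receptor genes in their order along chromosome 9 (left, 7 genes) and chromosome 1 (right, 2 genes), red for genes that passed as higher and blue as lower. Ccr2 at 2.75 stands beside Ccr3 at -2.23, and Cxcr1 at 3.26 beside Cxcr2 at -1.59.

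Among 16 further chemokine receptor and related genes, 14 were tested, of which Cxcr1 rose and 4 fell, with a median log2 fold change of -0.85. Those that fell were Ackr1, an atypical receptor of erythroid cells, at -3.10 (SE 0.57), Ccr6, the Ccl20 receptor, at -2.75 (SE 0.40), the chemerin-binding Ccrl2 at -1.69 (SE 0.45) and Cmklr1 at -1.46 (SE 0.36). In the same marrow all 8 erythroid markers fell, with sums of 423600 to 517800 in control and 12440 to 65340 in MxCDX2 mice, and 2 of 8 eosinophil and basophil markers fell and none rose, with sums of 36750 to 169500 and 14570 to 126800. Those 2 were Mcpt8 at -1.42 and Fcer1a at -1.59. Epx, Prg2, Ear6 and Il5ra, at -0.85, -0.88, -0.97 and -0.81, did not pass, nor did Cpa3 at -0.23. Siglecf at 1.10 did not pass in edgeR and was called higher by DESeq2. The part of erythroid cells, eosinophils and basophils in the receptor values was not tested.

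Ligands of the 9 receptors were tested from a list of 23, of which 20 had enough counts for edgeR. In edgeR 3 rose and 1 fell, with a median log2 fold change of 0.17, whereas DESeq2 called 3 higher and 5 lower. Ccl9, a ligand of Ccr1, had normalized counts of 3627, 3170 and 2489 in the control mice and of 20970, 19920 and 25690 in the MxCDX2 mice, with no overlap. Its log2 fold change was 2.84 (SE 0.19) with an edgeR quasi-likelihood, Benjamini-Hochberg adjusted p of 0.00101, while Ccr1 itself did not pass. Ccl3, another Ccr1 ligand, rose by 1.48 (SE 0.35) on the log2 scale and Cxcl10, a Cxcr3 ligand, by 1.93 (SE 0.48).

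Cxcl12, the ligand of Cxcr4, had normalized counts of 24580, 11450 and 43920 in the control mice and of 8499, 4536 and 9723 in the MxCDX2 mice. All MxCDX2 mice were below all controls, and the controls spread widely. The log2 fold change was -1.81 (SE 0.51) with an edgeR quasi-likelihood, Benjamini-Hochberg adjusted p of 0.0481, close to the threshold, and the call was lost when libraries were scaled by total counts only and in the fits without control mouse 1 or MxCDX2 mouse 1, 2 or 3, where 0 ligands were called lower. The Cxcr2 ligand Ppbp, a platelet chemokine, had a log2 fold change of -3.62 (SE 1.05) and did not pass in edgeR (adjusted p = 0.0519), but was called lower by DESeq2. Ccl2, the main Ccr2 ligand, was at 123.4 ± 95.9 in control and 139.2 ± 113.7 in MxCDX2 mice (SD, n = 3 each), with a log2 fold change of 0.18 (SE 0.93). Cxcl13, the Cxcr5 ligand, had too few counts for the edgeR test, and DESeq2 called it lower. Its normalized counts were 10.2, 2.98 and 76.6 in the control mice and 4.24, 0.98 and 5.22 in the MxCDX2 mice, so the groups overlapped. The number of ligands that passed fell from 4 to 1 without control mouse 1, MxCDX2 mouse 2 or MxCDX2 mouse 3.

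Downstream of the receptors, 18 genes of G protein, phosphoinositide 3-kinase and Rac signalling were all tested and 0 passed both thresholds in edgeR's quasi-likelihood test, with 0 also in DESeq2, 8 at an unadjusted p below 0.05 and a median log2 fold change of 0.28. Dock2, a Rac activator of migrating leukocytes, Pik3r6 and Gng2 had log2 fold changes of 0.68, 0.88 and 0.57, under the fold threshold, with adjusted p-values of 0.0182, 0.0243 and 0.0228 in edgeR. Among 14 genes that switch receptors off (receptor kinases, arrestins and RGS proteins), the beta-arrestin gene Arrb1 fell by 1.19 (SE 0.12) on the log2 scale, with an edgeR quasi-likelihood, Benjamini-Hochberg adjusted p of 0.00217, and no other passed both thresholds. Arrb2 at -0.82 (SE 0.12) and Grk5 at 0.96 (SE 0.13) had edgeR adjusted p-values of 0.00518 and 0.00445 but a smaller fold change than required. The median of the 14 was -0.15.

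The protein-coding genes most like each member were found by Pearson's r of log2(normalized count + 1) over the 6 mice, among 11285 genes. Since the mice form 2 groups, a gene that separates them has a high r with any member that does. Nearest to Ccr2 were Ddx4 (r = 0.998), Adck2 and Abhd11, with 460 genes above 0.95, and nearest to Cxcr2 were Nanos1 (r = 0.999), Slc25a42 and Eif5. Ddx4 and Nanos1 are known mainly from germ cells. Pithd1, Socs5 and Gimap6 were nearest to Ccr7, Camk2d, Med26 and Scml4 to Cxcr5, and Maged1, Cdc42ep5 and Lrrc42 to Ccr9. The members whose groups overlap had fewer close genes: Pprc1 (r = 0.961) and Rdm1 for Ccr1, which had 3 genes above 0.95, Tmem259, Rbm25 and 5430403G16Rik for Cx3cr1, Szrd1, Csnk1d and Sf3b3 for Cxcr4, and for Cxcr3 Cd5 (r = 0.989), Fah and Lag3, of which Cd5 and Lag3 are lymphocyte surface genes.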

How the data were processed

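Bone marrow RNA of 6 littermate mice, 3 MxCDX2 and 3 control, was sequenced from stranded mRNA libraries. The authors aligned the reads with STAR 2.5 to GRCm38, counted them per gene with HTSeq 0.6.1 (base calls by bcl2fastq 2.17.1.14 in the submitters' processing notes) and deposited raw counts per mouse. Whether strand was used in counting, and how reads with several matches were treated, is not given in the sources used here. Lines that name no gene held 12.2% to 17.1% of reads and were left out. Of 39179 identifiers, 37607 were named from GENCODE M21 (GRCm38), which also gave positions and exon lengths.

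Counts were tested with edgeR 4.0.16 in R 4.3.3 (TMM, default filterByExpr, glmQLFit, glmQLFTest) over 15980 genes, with Benjamini-Hochberg adjustment over all of them, after tests on simulated data. Standard errors were derived from the quasi-likelihood F statistic. The thresholds were those of the study's methods (absolute log2 fold change above 1, adjusted p below 0.05). DESeq2 1.42.0, other scalings and filters and each mouse left out were alternatives, and the exon length was a further one chosen after seeing the data. Figures were drawn with matplotlib 3.10.9 in Python 3.11.15. The members and lists were chosen with earlier results of these data known. Named were all 9 members, in each other list the genes that passed, at most 4 per direction where the mean normalized count was 50 or more, and for likeness the 3 genes with the highest r (mean of at least 100), apart from genes not reported here. The Cxcr1 to Cxcr2 and Ccr2 to Cx3cr1 ratios, and genes named that did not pass, were chosen after their values were seen. Ltf and Camp are in both neutrophil lists, and Cxcl2 is a ligand and a neutrophil marker. Irf8, Klf4, Pax5, Ebf1, Klf1 and Gata1, among the markers, are also named by the study from these libraries.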

Additional observations from a re-analysis of the deposited data

How the results depend on the processing

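Under 11 alternatives for each of the 9 members (99 fits), 92 kept direction and side of the threshold, 2 lost the call (Ccr7 and Cxcr5 without MxCDX2 mouse 3), 2 gained it (Ccr9 with DESeq2 and with every gene of at least 1 count), and 3 turned sign: Ccr1 to 0.18 without control mouse 1, and Cx3cr1 to -0.26 without control mouse 1 and -0.21 without MxCDX2 mouse 2, none of which passed (ranges over the 6 fits without 1 mouse -0.63 to 0.18 and -0.26 to 0.43). Leaving out 1 mouse gave 2 to 4 members called and 1205 to 2406 genes called over all, the low ends both without MxCDX2 mouse 3, 2 to 5 of the other receptors (3 without control mouse 1 or MxCDX2 mouse 2, 2 without MxCDX2 mouse 3), 1 to 4 ligands, 0 to 1 signalling genes (1 without control mouse 2) and 1 to 3 desensitisation genes (3 without control mouse 2). With DESeq2, 8 ligands (3 higher, 5 lower) and 3 desensitisation genes were called against 4 and 1 with edgeR. With total counts only, 1 signalling and 2 desensitisation genes were called, and the median of all genes moved to 0.12 on the log2 scale. The causes were not tested, beyond the smaller number of mice in fits that leave 1 out. With the longest coding transcript as length, 2 of the shares moved by more than their SD, Ccr2 in control from 4.61% to 5.35% and Ccr9 in MxCDX2 mice from 0.0913% to 0.173%.

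No paired analysis was possible because the control mice carry no replicate number in the labels that matches those of the MxCDX2 mice. With at least 38646101 reads per mouse, depth does not limit the members, whose lowest count was 82 reads, and the spread between 3 mice per group does. Controls of 3 genotypes are pooled, so their spread includes any genotype difference.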
